A study of Mus musculus with 2 samples.

Results

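The 35 genes described here encode the machinery of endoplasmic reticulum (ER)-associated degradation (ERAD), the sensors of the unfolded protein response (UPR), and the transcription factors and proteases that act with these sensors. They were picked out by symbol, and all 35 were represented among the 18193 genes measured, by 80 probe sets that the platform annotation ties to 1 gene each. The Affymetrix array Mouse Genome 430 2 was used to measure RNA of chondrocytes, the cells of cartilage, which were taken from the ribs of mice at 5 days of age and released with collagenase. One array held RNA of wild-type mice and the other RNA of mice with the V156D knock-in of Matn1, the gene of matrilin-1, a protein of the cartilage matrix. Each array was made from 6 µg of total RNA, and cells of 5 littermates were pooled before extraction, per the series' design text. The sources used here do not give whether 1 allele or both carried the knock-in, or whether 5 animals were pooled for each genotype.

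With 1 array of each genotype there is no error between samples and no test. Values are deposited probe set intensities on a linear scale, and each difference is the log2 ratio of the mutant over the wild-type intensity, so that a negative value means a lower signal in the mutant array. Intensities are given as pairs, the wild-type array first. Each gene is represented by its brightest probe set, the one with the highest log2 signal averaged over both arrays. The signal floor is the 50th percentile of all probe sets, an intensity of 54.6, and all 35 genes lay at or above it together with 11329 genes of the arrays. Higher and lower describe these arrays and are not shown to be differences between genotypes. In RNA of pooled cells, fewer cells of a type and less RNA per cell cannot be told apart.

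ERAD removes proteins that fail to fold in the ER. Mannosidases and lectins mark and recognise their sugar chains, a membrane channel built around the ubiquitin ligase HRD1 passes them to the cytosol, and the ATPase VCP pulls them out for the proteasome. The UPR watches the load of unfolded protein through the sensors IRE1, PERK and ATF6, and IRE1 splices the Xbp1 transcript so that it encodes an active factor that raises many ERAD genes. Chondrocytes secrete large amounts of collagen and proteoglycan, and missense mutations in the A domain of the related matrilin gene MATN3 are known to hold the protein in the ER and to cause a skeletal dysplasia.

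The ERAD and UPR sensor genes had similar signals in both arrays. Of the 35 genes, 22 had log2 ratios below 0 and 13 above, or 62.9% below 0, against 55.0% of the genes at or above the floor. The median log2 ratio of the 35 was -0.06, and that of the 11329 genes was -0.02. The lowest ratio was -0.60, of Ern1, which encodes IRE1, and the highest was 0.28, of Edem2, a mannosidase-like ERAD gene. Signal scaling moved this division. With each array centred on its median, 26 members were below 0 and 9 above, and 59.4% of genes at or above the floor were below 0. After quantile normalization 19 members were below 0 and 16 above, and 48.4% of those genes were below 0.

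Large differences were rare. No gene of the 35 differed 2-fold, against 0.909% of genes at or above the floor. At 1.5-fold, 1 of the 35 genes was lower in the mutant array, against 2.02% of genes at or above the floor, and 0 were higher, against 1.7%. Beyond a log2 ratio of 0.32 in size, 2 genes were lower, Ern1 and the ligase gene Syvn1, against 9.25% of genes at or above the floor, and 0 were higher, against 5.57%. The log2 ratios of the 35 had an SD over genes of 0.16 and a median size of 0.08 regardless of sign, and those of the 11329 genes had an SD of 0.27 and a median size of 0.13.

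**Figure D1:**
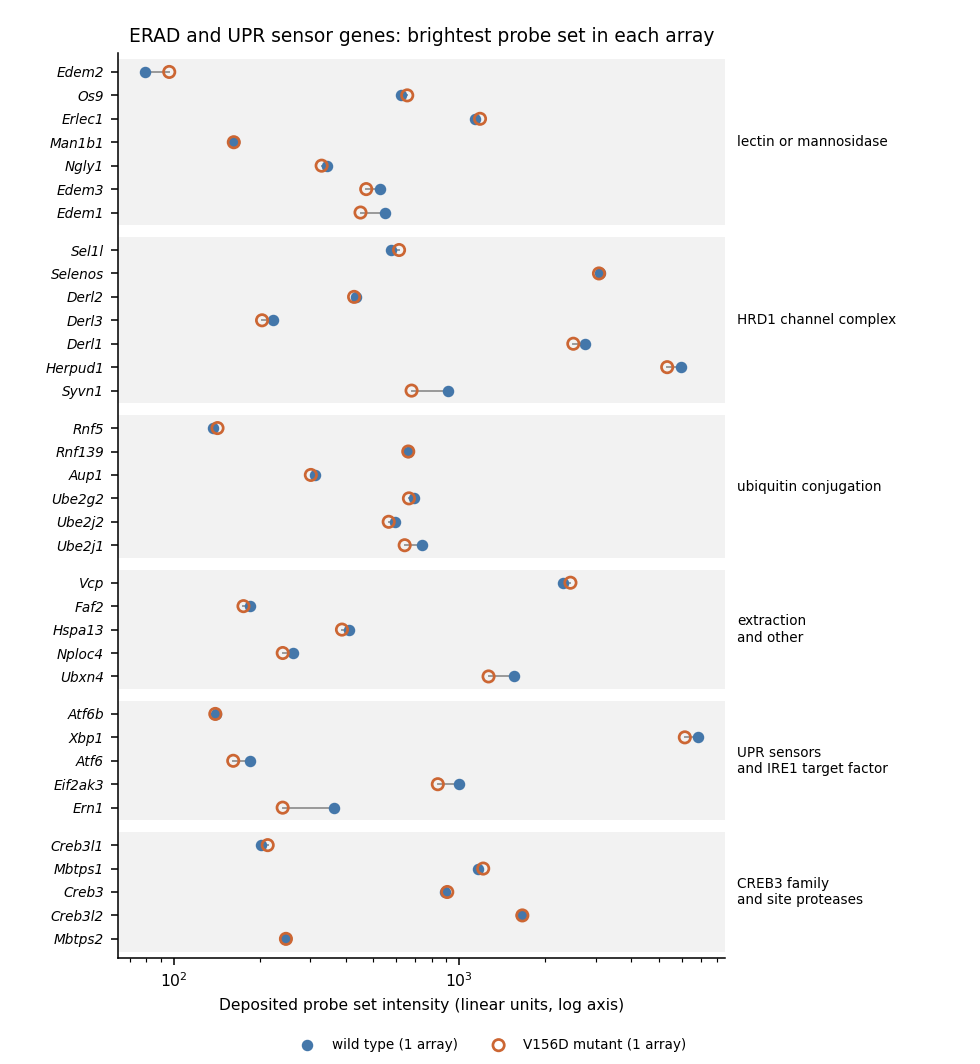
Deposited intensity (log axis) of the brightest probe set of each of the 35 genes, grouped by role, with a filled point for the wild-type array and an open point for the V156D mutant array. The points of most genes nearly coincide, and the widest gap is that of Ern1, at 364 and 240.

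**Figure D2:**
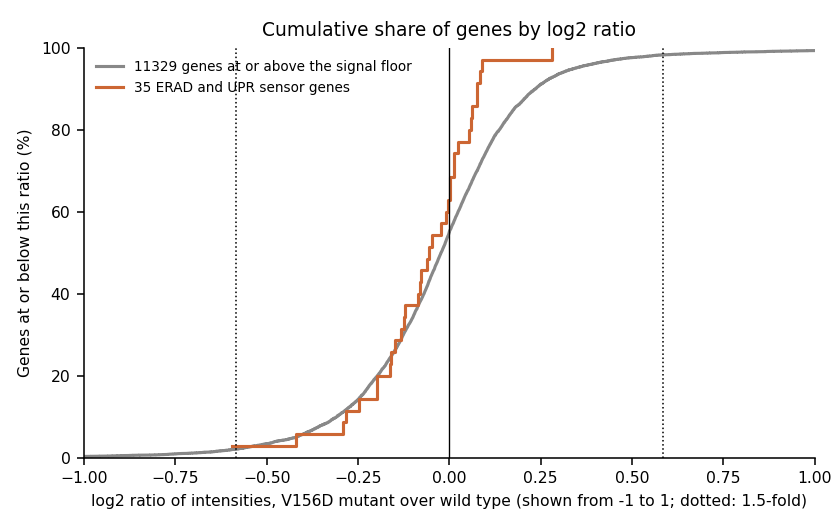
Cumulative share of genes (%) by log2 ratio of mutant over wild type, for the 35 ERAD and UPR sensor genes and for the 11329 genes at or above the floor, with dotted lines at 1.5-fold. The curve of the 35 crosses 0 at 62.9%, that of all genes at 55.0%, and Ern1 alone of the 35 lies beyond a dotted line.

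Genes that read the sugar chains of misfolded proteins lay on both sides of 0, with a median log2 ratio of 0.00. Of these 7, 3 were below 0, against 55.0% of genes at or above the floor. Edem1, Edem2 and Edem3 encode mannosidase-like proteins that trim mannose from proteins bound for degradation. Edem1 had intensities of 548 and 450, a log2 ratio of -0.28, but its second probe set went from 438 to 480, a ratio of 0.13. Edem2 had 79.4 and 96.4, and its second probe set, below the floor, gave 0.30. Edem3 had 527 and 472, a ratio of -0.16, and -0.14 by its second probe set. The 3 EDEM genes therefore did not share a direction, and the direction of Edem1 depended on the probe set.

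The remaining genes of this role differed little. Man1b1, an ER mannosidase, had 162 in both arrays. The lectin genes Os9 and Erlec1, whose products hand glycoproteins to the HRD1 complex, had log2 ratios of 0.08 and 0.06. Both Os9 probe sets were above 0, with a mean of 0.12 ± 0.06, where the SD is over its 2 probe sets and not over samples. Ngly1, the cytosolic enzyme that strips sugar chains from extracted proteins, had -0.06.

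Of 7 genes of the HRD1 channel complex, 6 had log2 ratios below 0, with a median of -0.13, against 55.0% of genes at or above the floor. The count was 4 of 7 after quantile normalization and after the loess correction, against 48.4% and 49.0% of genes at or above the floor. With the mean over all probe sets it was 7 of 7, with a median of -0.08, against 54.9%. The median was -0.03 over the 5 genes that have probe sets specific to a transcript by name. Syvn1, which encodes HRD1 itself, had 909 and 680, and its second probe set 626 and 517. These are log2 ratios of -0.42 and -0.28, or 1.34-fold and 1.21-fold lower. Sel1l, the partner that holds HRD1 in the membrane complex, had 578 and 615, a ratio of 0.09. Its 5 probe sets ran from -0.31 to 0.09, with 3 below 0 and 2 above, so its direction was not settled.

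Herpud1, a scaffold of the complex and a known UPR target, had 5970 and 5337, a log2 ratio of -0.16. The mean over its 2 probe sets was -0.15 ± 0.02 (SD over probe sets). Derl1, Derl2 and Derl3, the derlins of the membrane channel, had ratios of -0.13, -0.02 and -0.13. The Derl1 probe sets ran from -0.13 to 0.07. Selenos, a selenoprotein that links VCP to the derlins, had 3098 and 3080, a ratio of -0.01, and the signs of Selenos and Derl2 turned positive after quantile normalization and after the loess correction.

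Motifs for UPR factors were looked for in the promoters of the 35 genes, because several of them, among them Syvn1 and Herpud1, are textbook UPR targets. RefSeq promoters of GRCm38.p6, which run from 250 bases before to 50 bases after the annotated start, were found for 26 of the 35 genes, in 28 windows. The genes without an entry were Derl1, Ube2g2, Rnf5, Atf6, Aup1, Rnf139, Hspa13, Creb3l1 and Erlec1. Both strands were searched for exact letters. The ER stress response element (ERSE), which is CCAAT, then 9 bases of any kind, then CCACG, is read by ATF6 with the CCAAT-binding factor NF-Y, and it was present in 0.119% of 32851 promoters. The second element (ERSE-II), which is ATTGG, then 1 base of any kind, then CCACG, was in 0.0365% of them, and the UPR element core, TGACGTGG, in 0.676%. Counted by gene, the ERSE was in promoters of 2 of the 26 genes and of 0.137% of 27025 genes. ERSE-II was in 1 of the 26 and 0.0444%, and the core in 2 of the 26 and 0.714%. The last 5 letters of ERSE and ERSE-II are the same, and the core ends in the reverse complement of these letters, so the motifs overlap. Stretches of 60 bases that end before the start are shown for every gene of the 35 with one of these motifs, as GRCm38.p6 sequence 5′ to 3′ on the gene's strand, with the match in capitals.
Syvn1 (ERSE, chr19:6046511-6046570, plus strand): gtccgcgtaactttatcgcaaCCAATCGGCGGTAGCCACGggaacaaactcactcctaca
Derl3 (ERSE on the other strand, chr10:75893221-75893280, plus strand): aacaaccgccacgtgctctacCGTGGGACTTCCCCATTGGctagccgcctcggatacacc
Herpud1 (ERSE-II, chr8:94386352-94386411, plus strand): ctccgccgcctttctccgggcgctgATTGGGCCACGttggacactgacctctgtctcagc
Ube2j1 (core on the other strand, chr4:33031286-33031345, plus strand): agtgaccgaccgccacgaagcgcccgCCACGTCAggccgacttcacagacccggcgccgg
Vcp (core, chr4:43000588-43000647, minus strand): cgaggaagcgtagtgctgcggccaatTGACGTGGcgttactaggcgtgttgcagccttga

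The ERSE of Syvn1 ended 26 bases before the start, the ERSE-II of Herpud1 42 bases, the core of Ube2j1 61 bases, the core of Vcp 107 bases and the ERSE of Derl3 138 bases. The log2 ratios of Syvn1, Ube2j1, Herpud1, Derl3 and Vcp were -0.42, -0.20, -0.16, -0.13 and 0.08. The short motif CCACG, on either strand, was in the promoters of 16 of the 26 genes and of 35.5% of the 27025 genes with a promoter entry. The core of the amino acid response element read by ATF4, TGATGNAAN, was in the promoters of Herpud1 and Faf2 and of 4.5% of the 27025 genes. A match of letters does not show that a factor binds.

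The genes of ubiquitin conjugation had 4 of 6 log2 ratios below 0, against 55.0% of genes at or above the floor, and a median of -0.05. Ube2j1, an ER-anchored conjugating enzyme that works with HRD1, was the lowest, with 738 and 643, a ratio of -0.20, and -0.08 by its second probe set. Ube2j2, its relative, had -0.08, but 0.34 by its second probe set, at 129 and 163. Ube2g2, a soluble conjugating enzyme, and Aup1, which recruits it to the ER membrane, had -0.06 and -0.05. The ligase genes Rnf139 and Rnf5 had 0.00 and 0.05, with Rnf139 at 662 in both arrays.

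Extraction genes had 4 of 5 log2 ratios below 0, against 55.0% of genes at or above the floor, and a median of -0.09. Vcp, the gene of the extracting ATPase, had 2309 and 2447, a ratio of 0.08, and -0.10 by its second, dimmer probe set. Ubxn4, a membrane protein that binds VCP at the ER, had 1547 and 1265, and all 3 of its probe sets were lower in the mutant array, with a mean of -0.28 ± 0.04 (SD over probe sets). Nploc4, a cofactor of VCP, had -0.12, and Faf2, another membrane anchor for VCP, had -0.08. Hspa13, an Hsp70-like protein of microsomes, had -0.09 by its brightest probe set, while its other 3 probe sets ran from -0.00 to 0.12. Ubxn4 thus had the lowest ratio of this role, with probe sets that differed little among themselves.

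All 5 genes of the UPR sensors and of Xbp1 were below 0, Atf6b at -0.00, against 55.0% of genes at or above the floor. Their median log2 ratio was -0.20. Ern1 had 364 and 240, or 1.51-fold lower, and 121 and 86.0 by its second probe set, or 1.41-fold lower. A further one had 77.8 and 62.5, a ratio of -0.31. The 2 probe sets below the floor gave -0.13 and -0.05. All 5 probe sets were below 0, with smaller ratios at dimmer signals, and the mean over all 5 was -0.32 ± 0.23 (SD over probe sets). Across all probe sets the SD of the log2 ratio was 0.26 at average intensities of 253 to 584, the range of the brightest Ern1 probe set. That SD was 0.27 at 37.6 to 54.6 and 0.24 at 18.2 to 26.6, the ranges of the 2 Ern1 probe sets below the floor. Why the dimmer probe sets of Ern1 had smaller ratios was not tested. The 1.5-fold difference of Ern1 was not reached after quantile normalization, at -0.55, or after the loess correction, at -0.56.

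Eif2ak3, which encodes the sensor PERK, had 998 and 840, a log2 ratio of -0.25, and its other 2 probe sets, below the floor, gave 0.08 and -0.04. Atf6, the sensor that is itself a transcription factor, had 185 and 161, a ratio of -0.20, and a probe set at 114 and 119 gave 0.06. Its relative Atf6b had 140 in both arrays. Of the 4 sensor genes Ern1 thus had the lowest ratio, and it was the one with every probe set below 0 among those with several.

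Xbp1, the factor activated by IRE1, had 6820 and 6153, a log2 ratio of -0.15, and a second bright probe set gave -0.13. The other 2 probe sets, at 1678 and 1275 and at 206 and 149, gave -0.40 and -0.46. All 4 were lower in the mutant array, by 1.09-fold to 1.38-fold, with a mean of -0.29 ± 0.17 (SD over probe sets). The spliced and unspliced forms of Xbp1 were not told apart here, so these values do not measure IRE1 activity.

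The CREB3 family of ER-bound factors and the proteases that release them were at or just above 0, with a median log2 ratio of 0.02. All 5 ratios were positive, against 44.8% of genes at or above the floor. Creb3l2, a factor that drives secretory genes in chondrocytes, had 1645 and 1660, a ratio of 0.01, and 0.21 by its second probe set. Creb3l1, its relative best known from osteoblasts, had 202 and 213, a ratio of 0.08, and Creb3 had 0.02. Mbtps1, the site-1 protease that cuts ATF6 and the CREB3 factors, had 1163 and 1211, a ratio of 0.06, with 0.37 and 0.30 by its dimmer probe sets. Mbtps2, the site-2 protease, had 245 and 247, a ratio of 0.01. The positive signs were small: centring turned Creb3l2 and Mbtps2 negative, and with probe sets that may match several transcripts left out, Creb3 had -0.06.

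**Figure D3:**
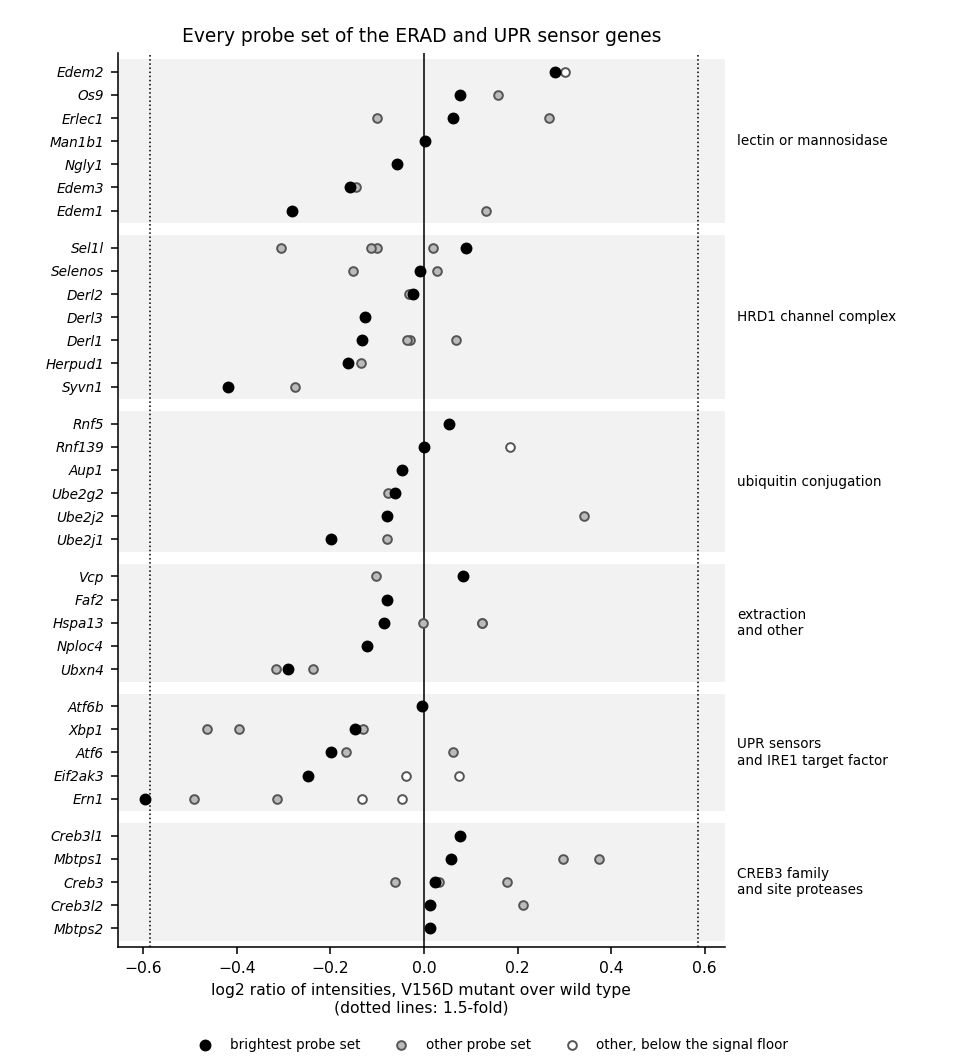
Log2 ratio of mutant over wild type for all 80 probe sets of the 35 genes, grouped by role. Black points mark the brightest probe set of a gene, grey points its other probe sets and open points those below the floor. Probe sets of Ern1, Xbp1, Syvn1 and Ubxn4 all lie below 0, whereas those of Sel1l, Edem1 and Vcp lie on both sides.

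Probe sets of a gene agreed in sign about as often as for other genes. Of 22 members for which 2 or more probe sets reached the floor, 12 had probe sets of 1 sign, or 54.5%, against 52.5% of 4878 such genes of the arrays. Of these 12, 9 were below 0 throughout, or 40.9% of the 22 against 31.3% of the 4878. They were Edem3, Syvn1, Herpud1, Derl2, Ube2j1, Ube2g2, Ubxn4, Ern1 and Xbp1. The 3 above 0 throughout were Os9, Creb3l2 and Mbtps1, or 13.6% against 21.2%. The difference between the ratios of the brightest pair of probe sets of a gene had an SD of 0.26 over the 4878 genes. The ratios of 5 of the 35 genes exceeded that in size, or 14.3%, against 21.9% of genes at or above the floor.

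**Figure D4:**
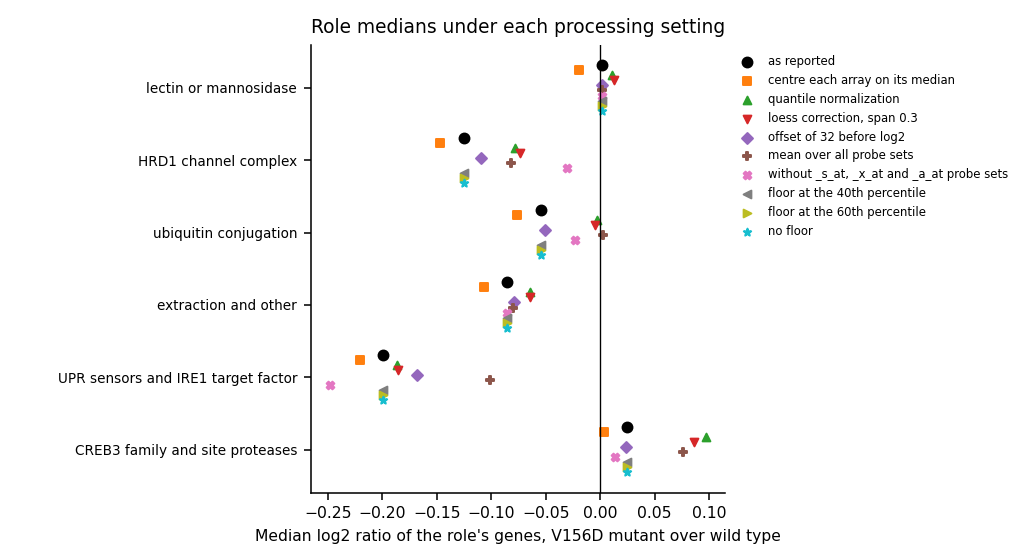
Median log2 ratio of each role's genes as reported (black circle) and under 9 other processing settings, of which the other floors could not change these medians. The sensors with Xbp1 stay between -0.25 and -0.10, and the HRD1 complex between -0.15 and -0.03, whereas the lectins and the ubiquitin genes have settings on both sides of 0.

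Other ERAD genes also lay close to 0. Of 52 such genes on a list, 49 were measured, 47 of them at or above the floor. Of the 49, 29 had log2 ratios below 0, or 59.2%, with a median of -0.05. The share was 52.1% of all genes and 55.0% of genes at or above the floor, with medians of -0.01 and -0.02. One was 1.5-fold lower, against 1.61% of all genes, and 0 were 1.5-fold higher, against 1.53%. That gene was Ubxn2a, which encodes a VCP cofactor, with 396 and 235, and a ratio of -0.23 by its second probe set. The ligase gene Trim13 was next, with 240 and 170, a ratio of -0.50. At the other end were Man1c1, a mannosidase gene, with 118 and 164, a ratio of 0.47, and Rhbdd2, a rhomboid family gene, with 0.24, which was -0.00 as the mean over its 3 probe sets.

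Of 34 other genes of UPR signalling, 31 were measured, 28 of them at or above the floor. Of the 31, 23 had log2 ratios below 0, or 74.2%, with a median of -0.09. The share was 52.1% of all genes and 55.0% of genes at or above the floor. None reached 1.5-fold in either direction, against 1.61% of all genes lower and 1.53% higher. All 8 measured genes of the PERK arm were below 0, with a median of -0.25, led by Trib3, a pseudokinase induced by ATF4, at 969 and 730 and a ratio of -0.41, and Chac1, a glutathione-degrading enzyme induced by ATF4, at 3304 and 2516 and a ratio of -0.39. Atf4 itself had 9625 and 9562, a ratio of -0.01, and Ddit3, which encodes CHOP, had -0.18. The 3 probe sets of Atf4 ran from -0.25 to 0.05, with a mean of -0.07, and the 2 of Ddit3 gave -0.18 and -0.03. In the IRE1 arm 6 of 10 were below 0, with a median of -0.05, and Scara3, whose transcript is a known substrate of IRE1, had 0.08. Among the genes of the ATF6 and CREB3 arms 9 of 13 were below 0, with Hspa5, the ER chaperone BiP, at -0.23 and Crebzf, a partner of CREB3 factors, at 0.10, or -0.21 as the mean over its 5 probe sets.

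**Figure D5:**
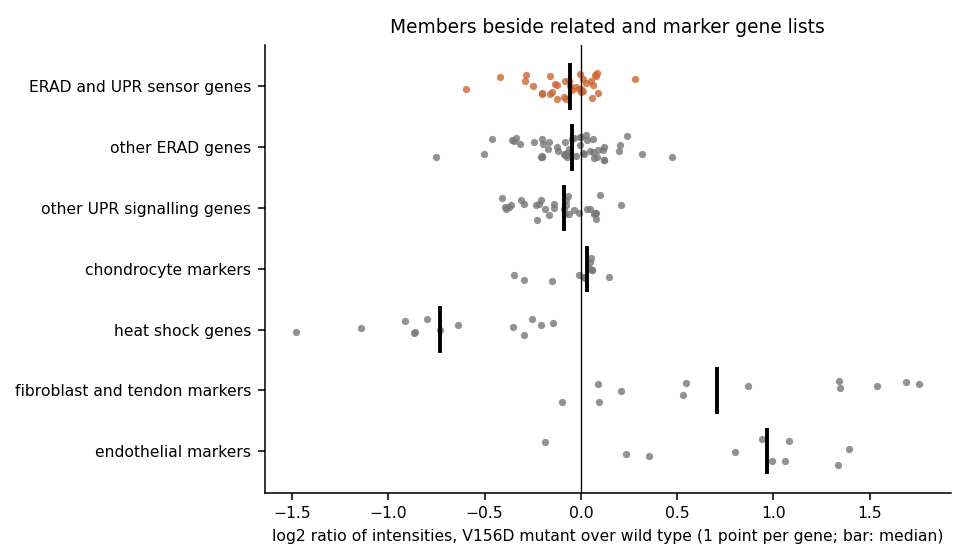
Log2 ratio of mutant over wild type for each gene (point) of 7 lists, with the list median as a black bar. The ERAD and UPR sensor genes lie around -0.06, close to the other ERAD genes at -0.05, whereas heat shock genes lie at -0.73 and fibroblast and endothelial markers at 0.71 and 0.97.

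Markers of the labelled cell type were bright in both arrays. The 12 chondrocyte markers had a median log2 ratio of 0.03 and summed intensities of 136020 and 137280. Of the 12, 8 were above 0 and 4 below, against 44.8% of genes at or above the floor above 0. The highest were Col11a2, at 0.15, and Acan, at 0.06. The lowest were Col9a2, a collagen IX chain gene, with 4897 and 3852, a ratio of -0.35, and Sox9, the gene of a cartilage transcription factor, with 3134 and 2555, a ratio of -0.29. The 3 probe sets of Sox9 ran from -0.49 to -0.05. Matn1 had 4373 and 4340, which does not tell the alleles apart. Of 12 fibroblast and tendon markers, 11 were higher in the mutant array, with sums of 49939 and 79585, against 44.8% of genes at or above the floor. Of 10 endothelial markers 9 were higher, with sums of 726 and 1135, against 47.3% of all genes. Among the endothelial markers Pecam1, Tek and Tie1 had mean signals below the floor. No macrophage and blood marker or muscle marker differed 1.5-fold, with list medians of 0.10 and 0.05. Of 9 measured macrophage and blood markers 6 were higher and 3 lower, with sums of 1959 and 1683. Of 8 muscle markers 4 were higher and 4 lower, with sums of 2553 and 1993. Only 5 of the 9 and 4 of the 8 lay at or above the floor. Tnnt3 and Acta1 of muscle had -0.48 and -0.44 and Cd14 -0.34, whereas Des of muscle had 0.45 and Alas2 0.31. All 13 heat shock genes were lower, with sums of 121563 and 88771, against 55.0% of genes at or above the floor. Of the 13, 8 were at least 1.5-fold lower, against 2.02% of those genes. Xist had 7755 and 5006 and the Y-linked Eif2s3y 230 and 490, so the pools differed in sex-linked transcripts. The part of these differences in the lower values of Ern1, Xbp1, Syvn1 and the genes of the PERK arm was not tested.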

How the data were processed

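The authors deposited 1 intensity per probe set and array, on a linear scale, for 45037 probe sets and 2 arrays, and the submitters' processing notes name MAS5 alone, with no version and no settings. The sources used here do not give the scaling between the arrays, and a background step may have compressed differences at low signal. Gene symbols of probe sets came from the platform annotation of GEO and were brought up to date through Entrez identifiers with RefSeq GRCm38.p6 (34741 of 34945 probe sets with 1 symbol were found). A further 932 had several symbols and 9160 none, and these were left out. No normalization was added before log2. The number of arrays, 1 per genotype, limits the precision.

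The members and the other lists were chosen with earlier results of these data known. All 35 members are named, and of other lists the 2 highest and 2 lowest genes at or above the floor were eligible, with Hspa5, Atf4, Ddit3, Matn1, Xist and Eif2s3y; not all eligible markers are described. Macrophage and blood markers (9 measured, median 0.10), muscle markers (8, 0.05) and osteoblast markers (4, 0.24) had no gene past 1.5-fold by its brightest probe set. All 4 osteoblast markers were higher in the mutant array, against 47.3% of all genes. Ibsp, below the floor, had a log2 ratio of 0.25, but 1.93 by its second, dimmer probe set. Alternatives were 3 scalings, an offset of 32, the mean over probe sets, leaving out probe sets ending in _s_at, _x_at or _a_at, other floors and other folds. The scripts were tested on simulated arrays with known changes. Python 3.11.15, numpy 2.4.6, pandas 2.3.3 and statsmodels 0.14.6 (loess, span 0.3) were used.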

Additional observations from a re-analysis of the deposited data

How the results depend on the processing

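No paired analysis was possible because each genotype has 1 array. The median of the 35 genes was below 0 under all 9 other settings. It ran from -0.08 with each array centred on its median to -0.01 after quantile normalization. Settings with another floor or no floor could not change any value of the 35 genes, which all lay at or above each floor. Centring moved the median of genes at or above the floor from -0.02 to -0.04, and quantile normalization moved it to 0.01. The count of members differing 1.5-fold was 1 as reported and with centring, other floors or with only the probe sets specific to a transcript by name. It was 0 after quantile normalization, 0 after the loess correction, 0 with an offset of 32, 0 with the mean over all probe sets and 0 at 2-fold, and it was 2 at a log2 ratio of 0.32. Ern1, at 1.51-fold as reported, lay just past the threshold. Of the 35 genes, 17 stayed below 0 and 6 above 0 under all these settings, where the floors could not change a sign. A further 12 changed sign in at least 1 setting. The value moved by more than the probe set SD of 0.26 for Ern1, to -0.32 as the mean over all probe sets, and, with only the probe sets specific by name, for Xbp1, to -0.46, and Ube2j2, to 0.34. Derl3 and Selenos have no value with only those probe sets. Medians of the other ERAD genes ran from -0.07 to 0.00 and those of the other UPR genes from -0.14 to -0.06.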

Other observations

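Genes with an ERSE in the RefSeq promoter window were looked at across the arrays, with the list fixed by sequence alone. Of 20 such genes measured, 13 had log2 ratios below 0 and 7 above, with a median of -0.13, against 52.1% below 0 and a median of -0.01 over all genes, and none differed 1.5-fold. At or above the floor and without the ERAD and UPR sensor genes, 7 of 13 were below 0, with a median of -0.07, against 55.0% of genes at or above the floor. Besides Syvn1 and Derl3 they included the ER chaperone genes Hspa5, at 15812 in the wild-type array and 13461 in the mutant array, and Hsp90b1, at 7617 and 5916, with ratios of -0.23 and -0.36, and the UPR target Creld2 at -0.40. Calr and Canx, which encode the lectin chaperones calreticulin and calnexin, also hold an ERSE and had 0.08 and 0.07. The 3 probe sets of Calr ran from -0.24 to 0.08, with a mean of -0.12, so its direction depended on the probe set. Of 9 measured genes with an ERSE-II, 7 were below 0, with a median of -0.16, and at or above the floor without Herpud1 6 of 7 were, with a median of -0.20. Of 143 measured genes with the UPR element core, 81 were below 0, with a median of -0.04. Genes with an ERSE-II included Herpud1 and the BiP co-chaperone gene Dnajb11 at -0.38. The 1 ERSE-II gene above 0 among those at or above the floor was Krtcap2, with 1922 and 2192, a ratio of 0.19. The highest gene with an ERSE was Adcy3, at 0.34. Lrif1, the gene of a factor that binds nuclear receptors, which holds both an ERSE-II and the UPR element core, had 196 and 92.7, a ratio of -1.08. Hsp90b1, Creld2, Calr, Canx, Dnajb11, Krtcap2, Adcy3 and Lrif1 were chosen after their values were seen. Many of these genes respond together to the same signals and are not independent.

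One probe set listed for both Mbtps2 and Yy2 lies outside the gene comparison. Its intensities were 152 and 115, wild type first, with a ratio of -0.41, whereas the probe set tied to Mbtps2 alone had 0.01.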
